A study of Rattus norvegicus with 6 samples.

Results

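The glycolysis genes Slc2a1, Hk2, Gapdh, Pgk1, Pkm and Ldha, together with Hif1a, were examined in cultured primary endothelial cells of the rat abdominal aorta. These 7 genes were taken by their Ensembl identifiers from a table of 32879 rows. All 7 identifiers were present, none was too low to test, and each was among the 12852 rows that passed the filter on low counts. The names were assigned to the identifiers beforehand, because the table carries no symbols and 0 genes of the RefSeq gene list used here come with an Ensembl identifier of the table. For the same reason the endothelial label was not checked against marker genes here, and further genes of the pathway are not analysed here.

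The groups were 3 wild-type libraries (WT), titled WT, and 3 libraries (KD) titled KO, whose genotype field calls them knocked down for miR-337-3p, a microRNA. The treatment text, identical for both groups, names transfection with 100 nM of an inhibitor of human miR-337-3p, so what the WT cells received is not settled by the labels. Nothing in the labels says whether the 3 libraries of a group came from separate animals or cultures, and p-values therefore measure the spread between libraries, which may be technical. Library totals lay between 5037127 and 5385434 estimated counts.

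Glycolysis converts glucose to pyruvate in the cytosol and yields ATP without oxygen. Endothelial cells, although they line blood vessels and have oxygen at hand, make much of their ATP this way and release lactate. Hif1a encodes the oxygen-regulated subunit of the transcription factor HIF-1, which is degraded when oxygen is present and otherwise raises the transcription of glucose transporters and glycolytic enzymes. Its activity is set largely at the protein level, which a transcript count does not measure.

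A microRNA acts through its seed, the bases near its 5′ end that pair with target messenger RNAs. The rat microRNA of the same name is shown with its bases 2 to 8 in capitals, as RefSeq gives it on GRCr8 at chr6:134321201-134321223, plus strand. The genotype field names no species, and the inhibitor is named for the human microRNA. The human sequence was not compared here, so the seed shown is that of the rat sequence alone. No 3′ UTR sequences were used, so sites for this seed in the 7 transcripts are not analysed here.
rno-miR-337-3p: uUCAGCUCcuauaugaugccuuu

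None of the 7 transcripts passed the test between KD and WT (quasi-likelihood test of edgeR, with p-values adjusted by Benjamini and Hochberg over all tested rows). Of all tested rows 21.2% passed, 11.0% with KD higher and 10.3% with KD lower. At an unadjusted p under 0.05 the count among the 7 was 1, Ldha, against 31.7% of all tested rows. The same gene was the 1 member called by DESeq2, which called 15.3% of rows, by limma-voom, which called 20.2%, and by edgeR on library totals without TMM factors, which called 22.3%. All 7 fitted log2 fold changes (KD over WT) were below 0, from -0.23 for Hk2 to -0.022 for Pgk1, with a median of -0.14. Of all tested rows 50.4% were below 0, and their median was -0.0033.

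The 7 genes are described in the order of the pathway, with values per library as CPM, that is counts per 1000000 counts of that library. CPM are not divided by transcript length, so levels are compared between libraries and not between genes. The groups did not overlap in 1 of the 7 genes, while 35.4% of tested rows had CPM that did not overlap in either direction. In the plot of CPM by library that gene, Ldha, is the transcript whose KD libraries all lie below the WT libraries.

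**Figure D1:**
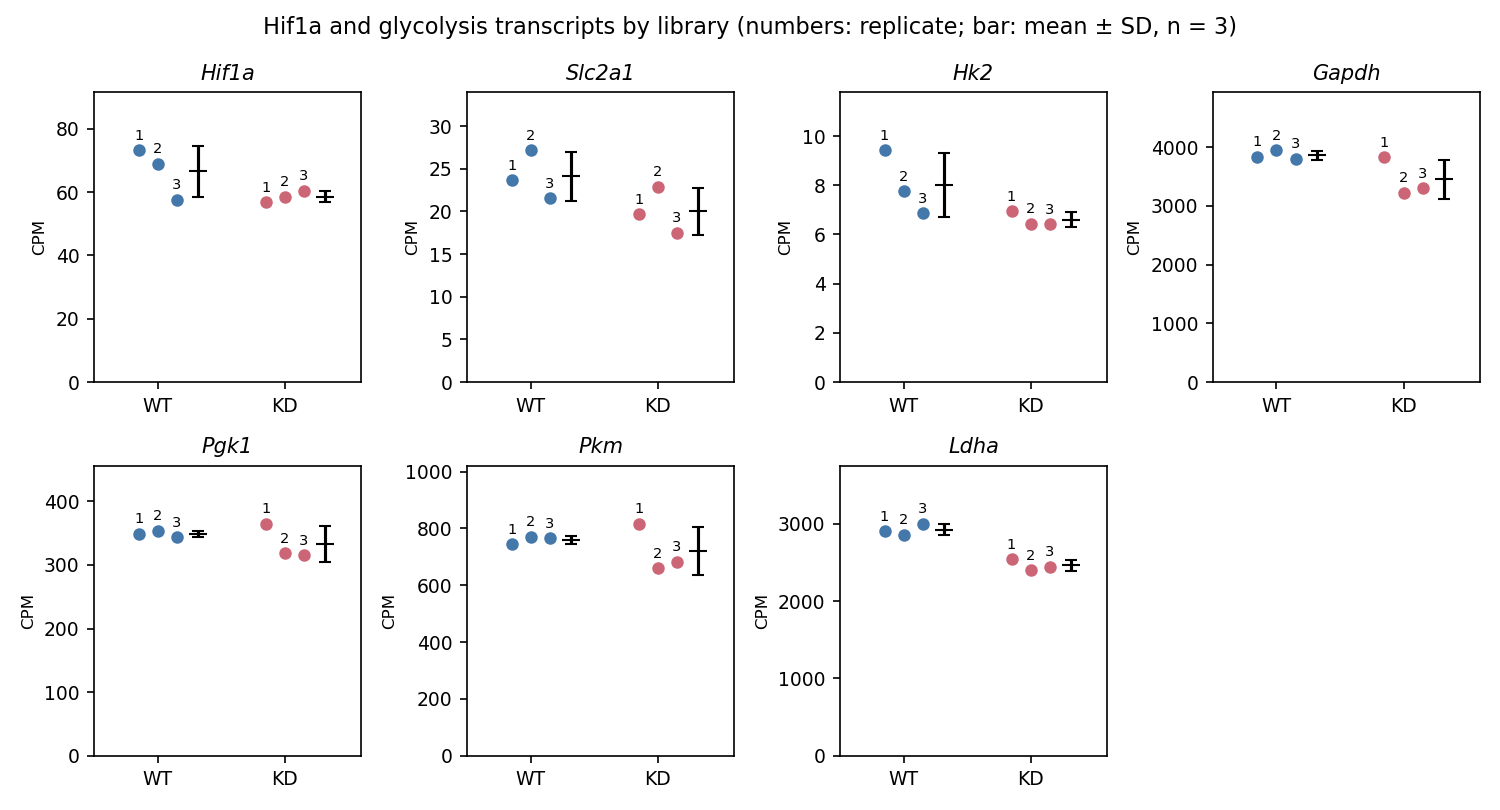
CPM (vertical axes, each from 0) of Hif1a, Slc2a1, Hk2, Gapdh, Pgk1, Pkm and Ldha in the 3 WT (blue) and 3 KD (red) libraries, with replicate numbers above the points and the mean ± SD (n = 3) as a black bar beside each group. The groups overlap in each panel except that of Ldha, where KD libraries lie between 2398 and 2546 CPM and WT libraries between 2864 and 3006.

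Hif1a (ENSRNOG00000008292), the transcription factor subunit, had 73.3, 68.9 and 57.6 CPM in WT replicates 1 to 3 and 56.8, 58.5 and 60.5 CPM in KD replicates 1 to 3. WT replicate 3 lay among the KD libraries, so the groups overlapped. The means were 66.6 ± 8.11 CPM in WT and 58.6 ± 1.84 in KD (SD, n = 3 each). Fitted by edgeR, the KD to WT difference was -0.14 ± 0.10 on the log2 scale (standard error; adjusted p = 0.378), and its 95% interval ran from 0.789 to 1.05-fold of WT. Leaving out WT replicate 3 gave -0.22 (edgeR adjusted p = 0.165), and leaving out WT replicate 1 gave -0.081 (adjusted p = 0.701). The abundance of the Hif1a transcript thus did not separate the groups beyond the spread of the WT libraries.

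Slc2a1 (ENSRNOG00000007284) encodes GLUT1, the transporter through which endothelial cells take up glucose. It had 23.6, 27.2 and 21.5 CPM in WT and 19.7, 22.9 and 17.5 CPM in KD replicates 1 to 3. KD replicate 2 lay above WT replicate 3, and the other KD libraries lay below every WT library. On the log2 scale KD differed from WT by -0.22 ± 0.14 (standard error; edgeR adjusted p = 0.295). The 95% interval ran from 0.705 to 1.05-fold of WT. This difference was -0.33 without KD replicate 2 (edgeR adjusted p = 0.147), -0.13 without WT replicate 2 (adjusted p = 0.672) and -0.14 without KD replicate 3 (adjusted p = 0.642).

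Hk2 (ENSRNOG00000006116) encodes hexokinase 2, an inducible enzyme that phosphorylates glucose in the first step of glycolysis. It was the transcript with the fewest counts of the 7, with 48, 40 and 37 counts in WT and 35, 34 and 33 in KD replicates 1 to 3. As CPM these were 9.43, 7.77 and 6.87 in WT and 6.95, 6.43 and 6.41 in KD. KD replicate 1 lay just above WT replicate 3, and the other KD values were below all WT values. Summed over libraries there were 125 WT and 102 KD counts. Scaled by library totals, without TMM factors, the KD to WT ratio was 0.824, with a 95% exact (Clopper-Pearson) interval of 0.628 to 1.08. That interval covers counting error only and already includes no change. The fitted log2 fold change was -0.23 ± 0.20 (standard error; edgeR adjusted p = 0.478), and it was -0.12 without WT replicate 1 (adjusted p = 0.790).

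Gapdh (ENSRNOG00000018630) encodes glyceraldehyde-3-phosphate dehydrogenase, which carries out the oxidative step of glycolysis and is often used as a reference gene. It had 3836, 3949 and 3804 CPM in WT and 3826, 3223 and 3295 CPM in KD replicates 1 to 3. KD replicate 1 lay within the WT range, and KD replicates 2 and 3 lay below it. The means were 3863 ± 75.9 CPM in WT and 3448 ± 329 in KD (SD, n = 3 each). Their log2 fold change of -0.12 ± 0.083 (standard error) did not pass (edgeR adjusted p = 0.358). Without KD replicate 1 it was -0.19, and the edgeR adjusted p of 0.0501 lay just above the threshold. Without KD replicate 2 it was -0.073 (adjusted p = 0.609).

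Pgk1 (ENSRNOG00000058249) encodes phosphoglycerate kinase 1, which makes ATP in the step after Gapdh. Its CPM were 349, 354 and 343 in WT and 365, 318 and 315 in KD replicates 1 to 3. The KD libraries lay on both sides of the WT libraries, with replicate 1 above all of them. The fitted difference was -0.022 ± 0.080 on the log2 scale (standard error; edgeR adjusted p = 0.885), and the 95% interval ran from 0.877 to 1.11-fold of WT.

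Pkm (ENSRNOG00000011329) encodes the muscle-type pyruvate kinases, which form pyruvate and ATP in the last step of glycolysis. Its splice forms PKM1 and PKM2 are not told apart by a count per gene. It had 745, 771 and 765 CPM in WT and 817, 659 and 683 CPM in KD replicates 1 to 3. As with Pgk1, KD replicate 1 lay above every WT library and the other KD libraries below every one. The fitted difference was -0.034 ± 0.085 on the log2 scale (standard error; edgeR adjusted p = 0.833), with a 95% interval of 0.864 to 1.10-fold of WT.

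The sign of the small differences in Pgk1 and Pkm rested on single libraries. Pgk1 had log2 fold changes of 0.0088 without KD replicate 2 and 0.010 without KD replicate 3, and -0.087 without KD replicate 1. Pkm had 0.025 without KD replicate 2 and -0.13 without KD replicate 1. None of these leave-one-out values passed the test (edgeR adjusted p from 0.441 to 0.965 for Pgk1 and from 0.232 to 0.990 for Pkm over all alternative fits).

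Ldha (ENSRNOG00000013009) encodes the A subunit of lactate dehydrogenase, which turns pyruvate into lactate and restores the NAD+ that the Gapdh step consumes. It had 2910, 2864 and 3006 CPM in WT and 2546, 2398 and 2447 CPM in KD replicates 1 to 3. All KD libraries lay below all WT libraries, a separation in this direction that 20.5% of tested rows also had. The means were 2927 ± 72.4 CPM in WT and 2464 ± 75.1 in KD (SD, n = 3 each). The fitted log2 fold change was -0.20 ± 0.078 (standard error), or 13.1% lower in KD. Its 95% interval, not adjusted for the number of rows tested, spanned changes of -22.3% to -2.87%.

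The Ldha difference lay close to the threshold on either side, depending on the fit. The edgeR adjusted p was 0.0673, and it was 0.0345 with DESeq2, 0.0346 with limma-voom, 0.0121 in edgeR with library totals in place of TMM factors and 0.0304 without KD replicate 1. It was between 0.110 and 0.200 in edgeR with any one of the other libraries left out. Its log2 fold change stayed between -0.25 and -0.17 in all these fits. With 45749 WT and 38082 KD counts, the count ratio without TMM factors was 0.841 with a 95% exact interval of 0.830 to 0.853 for counting error alone. In fitted size the Ldha difference was near the middle, since 50.9% of tested rows had a larger fitted log2 fold change in either direction. Those rows were not matched for abundance, and fitted changes of rows with few counts are less precise than that of Ldha.

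**Figure D2:**
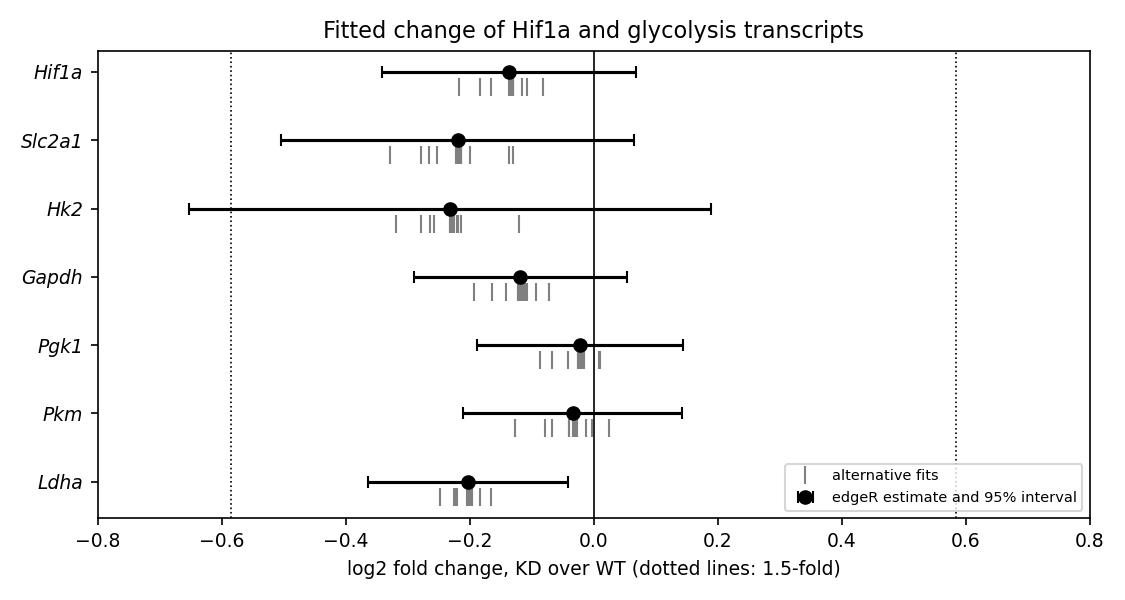
Fitted log2 fold change (KD over WT, horizontal axis) of the 7 transcripts, with the edgeR estimate as a black point, its unadjusted 95% interval as a bar and the estimates of the other tools, scalings, filters and leave-one-out fits as grey ticks. The intervals of all but Ldha include 0, and that of Hk2 alone crosses the dotted line at 1.5-fold lower.

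For 6 of the 7 transcripts the 95% interval excluded a change of 1.5-fold in either direction. The exception was Hk2, whose interval reached down to 0.636-fold of WT. Of all tested rows 50.5% had intervals this narrow, and the width depends on the count, so this describes the precision of the 7 estimates and does not set them apart. The bound of 1.5-fold was chosen after the values were seen. A p above the threshold does not show that the groups had equal levels, and the intervals give the changes that these libraries still allow.

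**Figure D3:**
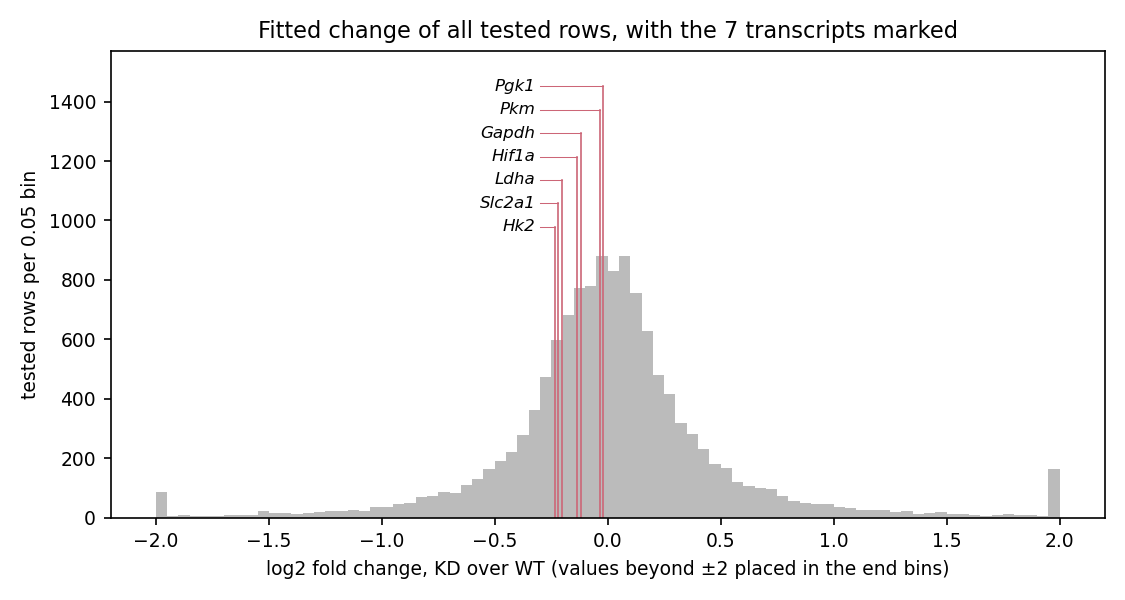
Number of tested rows (vertical axis) by fitted log2 fold change (KD over WT, horizontal axis, bins of 0.05), with red lines at the 7 transcripts. They lie between -0.23 and -0.022, near the centre of the distribution of 12852 rows.

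The 7 transcripts differed in which group had the larger observed spread. Gapdh, Pgk1 and Pkm were even across WT libraries, with coefficients of variation of 1.97%, 1.53% and 1.79%, and varied more across KD libraries, with 9.55%, 8.43% and 11.8%. In each of these genes KD replicate 1 was the highest KD library. Hif1a and Hk2 showed the opposite, with coefficients of variation of 12.2% and 16.2% in WT and 3.14% and 4.58% in KD. Their counts were low, 286 to 373 per library for Hif1a and 33 to 48 for Hk2. At such counts, counting error alone would on average give larger spreads than those seen in KD. For Hk2 it would also give about the spread seen in WT. Slc2a1 varied alike in both groups (11.8% and 13.6%), as did Ldha (2.48% and 3.05%). Whether these spreads differ was not tested.

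Summed over the 7 transcripts there were 7947, 8042 and 8004 CPM in WT and 7637, 6686 and 6825 CPM in KD replicates 1 to 3. Most of the counts in this sum were those of Gapdh and Ldha. All KD libraries were lower in this sum, which does not include TMM factors. Of single tested rows, 20.5% also had KD below WT in every library by CPM. The separation of the sum depends on the scaling. Divided by the TMM factors (1.03 for WT replicate 1 and 0.991 for KD replicate 1), KD replicate 1 would not lie below WT replicate 1. Without those factors the median log2 fold change of all tested rows was -0.05, so that CPM values lean toward lower levels in KD.

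Ratios between the members do not depend on the scaling of libraries. Expressed as a percentage of the Gapdh count in the same library, Pgk1 stood at 9.10%, 8.97% and 9.03% in WT and 9.55%, 9.88% and 9.56% in KD replicates 1 to 3. All KD values lay above all WT values. Pkm stood at 19.4%, 19.5% and 20.1% of Gapdh in WT and 21.4%, 20.5% and 20.7% in KD, again with KD above WT. As log2 differences, KD over WT, these ratios gave 0.097 and 0.083, opposite in sign to the fitted changes of the genes themselves.

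These were 2 of 6 ratios to Gapdh, and 24.5% of tested rows had ratios to Gapdh with all KD libraries above all WT libraries, as 33.9% did in either direction, so the share does not set the members apart. Two-sided exact permutation tests over 3 against 3 libraries cannot give a p below 0.1. Relative to Gapdh, Ldha stood at 75.9%, 72.5% and 79.0% in WT and 66.5%, 74.4% and 74.3% in KD. Here the groups overlapped, with KD replicates 2 and 3 inside the WT range. Hif1a, Slc2a1 and Hk2 also overlapped between groups in their ratio to Gapdh.

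**Figure D4:**
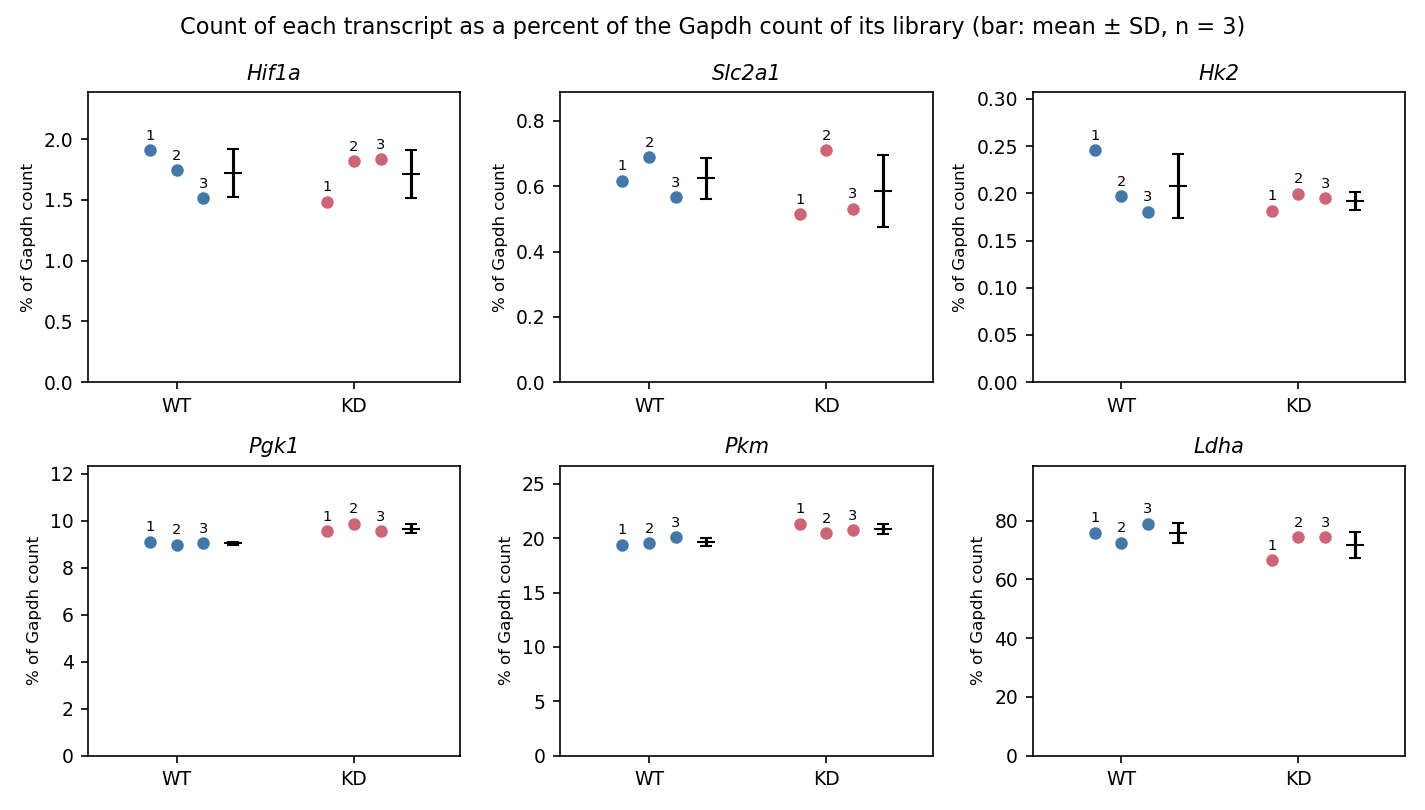
Count of Hif1a, Slc2a1, Hk2, Pgk1, Pkm and Ldha as a percentage of the Gapdh count of the same library (vertical axes, each from 0), for 3 WT (blue) and 3 KD (red) libraries, with the mean ± SD (n = 3) as a black bar. Pgk1 and Pkm lie higher in every KD library than in any WT library, and the groups overlap in the others.

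Of the 21 pairs of members, 4 had count ratios that did not overlap between the groups. Besides Pgk1 and Pkm to Gapdh, these were Pgk1 to Ldha and Pkm to Ldha, both higher in KD. The 4 pairs share their genes and are not independent, and the share over pairs of all tested rows was not computed. The Pkm to Ldha ratio was 0.256, 0.269 and 0.254 in WT and 0.321, 0.275 and 0.279 in KD replicates 1 to 3. The Pgk1 to Ldha ratio was 0.120, 0.124 and 0.114 in WT and 0.143, 0.133 and 0.129 in KD. Of all tested rows 35.6% had ratios to Ldha that were higher in every KD library. The Pgk1 to Pkm ratio overlapped between the groups, from 0.449 to 0.468 in WT and 0.447 to 0.483 in KD.

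The counts of Gapdh, Pgk1, Pkm and Ldha were fractional in all 6 libraries, those of Hif1a in 3 and of Slc2a1 in 2, and Hk2 held whole numbers throughout. Several glycolytic genes, Gapdh above all, have many near-identical processed pseudogenes in rodent genomes. Reads that were divided among such copies could move counts into or out of these rows, which was not tested.

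The start regions of the genes were searched for the core of the hypoxia response element that HIF-1 binds, ACGTG or GCGTG on either strand, counting overlapping matches. RefSeq windows on GRCr8, from 250 bases before to 50 after 1 start per gene, were matched for 6 of the 7 symbols, Pgk1 excepted. Of 33469 windows of this length 41.6% held either motif and 19.3% held ACGTG. The Ldha window held 6 matches, Slc2a1 4, Hif1a 3, Gapdh 3, Hk2 0 and Pkm 0. These numbers of matches were not compared with those of other windows. In Hif1a the matches 229 and 228 bases before the start are the same CACGTG, counted on each strand. A match of these letters is a description and not a site of binding, and 0 matches says only that the letters are not in that window.

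Of the 4 matches before the start in each of Ldha, the member nearest the threshold, and Slc2a1, the transporter, those of ACGTG are printed, with the motif in capitals on the strand of the gene (plus). The GCGTG matches, 14 bases before the start in Ldha and 153, 76 and 16 bases before it in Slc2a1, are not printed. Where the motif lies on the other strand its reverse complement is in capitals. The first ACGTG of Ldha, 86 bases before the start, is part of CACGTG, which reads the same on both strands, is also the core of an E-box and was counted on each strand. The next ACGTG of Ldha lies 73 bases before the start and the 1 ACGTG of Slc2a1 lies 51 bases before it. Their positions are chr1:106507996-106508020, chr1:106508009-106508033 and chr5:138002461-138002485.
Ldha, first ACGTG: cccagcctacACGTGggttcccgca
Ldha, next ACGTG: tgggttcccgCACGTccgctgggct
Slc2a1, ACGTG: cccgccccggACGTGgtcctcaggc

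The rows whose pattern was most like that of Hif1a were sought among 7425 other Ensembl rows with a mean of at least 10 CPM, by Pearson's r of log2(CPM + 1) over the 6 libraries. ENSRNOG00000017460 came first, with r = 0.99. Like Hif1a it was high in WT replicates 1 and 2 (41.5 and 36.1 CPM) and low in WT replicate 3 (13.6 CPM), which lay among the KD libraries at 12.5, 15.9 and 17.3 CPM. ENSRNOG00000008680 came next, with r = 0.99, at 221, 205 and 147 CPM in WT and 143, 159 and 160 CPM in KD. Over only 6 libraries a high r is weak evidence of a shared pattern, and 192 of the 7425 rows had r above 0.9. The fitted log2 fold change (KD over WT) of ENSRNOG00000017460 was -0.93 and passed the threshold (edgeR adjusted p = 0.00842). That of ENSRNOG00000008680 was -0.26 and did not pass (edgeR adjusted p = 0.0922). These rows were chosen for their r, which is given with no test, so their adjusted p-values are not independent of that choice.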

How the data were processed

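The authors deposited 1 table of estimated counts per gene for 6 libraries, not normalized, in which 21.6% of values are not whole numbers. The build was mRatBN7.2, per the submitters' processing notes. How reads were aligned and counted, and whether by strand, is not given in the sources used here. After rounding, edgeR 4.0.16 (R 4.3.3) was run on all rows passing filterByExpr, with TMM factors, a quasi-likelihood F test on group and Benjamini-Hochberg adjustment at 0.05. The standard error is the log2 fold change over the root of F, and 95% intervals use the t distribution. Count intervals cover counting error only and treat rounded estimates as reads. The fits were tested on simulated data. The members, lists and tests were chosen with earlier results of these data known. Named genes are all 7 members and the 2 rows most like Hif1a. Pathway and marker lists fixed by symbol could not be used, since no table pairs symbols with the identifiers. Alternatives were other tools (DESeq2 1.42.0, and limma-voom from limma 3.58.1), other scalings (RLE, upper quartile, library totals, ratio to Gapdh), other filters (none, or a mean of 50 counts), a stricter adjusted p (0.01), the replicate number as a block, each library left out and, added after seeing the data, Ensembl rows alone.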

Additional observations from a re-analysis of the deposited data

How the results depend on the processing

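Hif1a, Slc2a1, Hk2 and Gapdh kept their direction and did not pass in any alternative run (Hk2 fell below the filter on a mean of 50 counts). For every member, the adjusted p of 0.01 reads the main fit again, so its direction was fixed and it could not add a pass. The ratio to Gapdh was judged by the exact permutation test, which cannot give a p below 0.1, so it could not pass either. Ldha kept its direction in all 17 alternatives and passed in 5: library totals alone (log2 fold change -0.25), DESeq2 (-0.20), limma-voom (-0.20), the replicate block (-0.20, edgeR adjusted p = 0.0408) and without KD replicate 1 (-0.22), the cause not tested. With single libraries left out its log2 fold change ranged from -0.23 to -0.17. Signs turned for Pgk1, which ranged from -0.087 to 0.010 with single libraries left out (0.0088 without KD replicate 2) and was 0.097 as a ratio to Gapdh, and for Pkm, which ranged from -0.13 to 0.025 and was 0.083 as a ratio to Gapdh. The ratio to Gapdh subtracts the change of Gapdh by construction. The replicate block changed no other member's call. Whether the shared numbers pair the libraries is not settled. Deviations of same-numbered libraries from their group means correlated at -0.016, 0.0032 and 0.041 across rows. By these deviations the KD libraries correlated best with WT replicates 2, 1 and 3. No value from libraries known to be paired was at hand for comparison, so these correlations cannot decide it. The number of rows past the threshold, 2730, was 2960 with the block and lay within 1.5 times in every alternative, from 1820 at an adjusted p of 0.01 to 2960. With library totals alone 1234 rows rose and 1633 fell, against 1409 and 1321 with TMM factors. The summed CPM of the members differed by -948 (KD minus WT), by -533 without Gapdh, which is part of the sum and also its most abundant member, and by -1242 to -767 with single libraries left out. Among the members Hk2 had the fewest counts, 33 to 48 per library, and the widest interval of its fold change.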
